A study of Bos taurus with 6 samples.

Results

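Potassium channel genes were followed here in rumen epithelial primary cells (REPC) of cattle, with and without butyrate. A gene was taken as a member when its listed symbol was KCN followed by letters and a closing number, the pattern used for the pore-forming and auxiliary subunits of potassium channels. This rule, which used no measured value, found 95 of 32183 listed genes, with 93 different symbols, since KCNH8 and KCNIP3 were each listed at 2 positions. The cells came from the rumen epithelium of 1 Holstein bull calf, 2 weeks old and fed milk replacer only. RNA was sequenced from 3 cultures kept for 24 h with 5 mM butyrate and from 3 control cultures of the same cells, and the cultures of each group carry the replicate numbers 1 to 3. All 6 cultures thus share 1 animal, and every p-value below measures the spread between cultures and not between animals. In bulk cultures, fewer cells of a kind and less RNA per cell cannot be told apart.

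Potassium channels let potassium ions leave or enter the cell along their gradient and so set the membrane voltage. Voltage-gated channels (Kv) open when the membrane depolarizes, calcium- and sodium-activated channels respond to those ions inside the cell, inward rectifiers (Kir) pass current more easily inward, and two-pore channels (K2P) carry the background leak. In ruminal epithelium, basolateral potassium channels recycle the potassium brought in by the sodium pump and support the transport of sodium, potassium and short-chain fatty acids. Butyrate is one of these fatty acids, a fuel of the ruminal epithelium and an inhibitor of histone deacetylases.

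Levels are FPKM (fragments per kilobase of transcript, scaled to library size), which are divided by transcript length and can be set side by side between genes. The FPKM of all genes summed to between 678035 and 681912 in the control cultures and to between 619401 and 629037 in the butyrate cultures. From the width of the deposited confidence intervals, the depth of a culture was put at roughly 5756613 to 6186809 effective fragments, with the ranges of the 2 groups overlapping. The keratins KRT8, KRT19 and KRT5 averaged 1380, 492.3 and 400.8 FPKM in control, as the epithelial label asks, whereas EPCAM averaged 0.54 FPKM. Markers of fibroblasts and of smooth muscle and pericytes ranged as widely in control, from 0.149 FPKM for LUM to 1149 FPKM for COL1A1 and from 0.013 FPKM for RGS5 to 3074 FPKM for TAGLN. The markers of other cell types are given with their values after the channel genes.

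Of the 95 potassium channel genes, 33 were listed at 0 in all 6 cultures and 30 were above 0 in some culture but averaged under 0.1 FPKM, so that 32 were tested. After butyrate, 17 of the 32 were higher and 3 were lower, at a Benjamini-Hochberg (BH) adjusted p under 0.05 (limma on log2(FPKM + 0.1), adjusted over all genes tested). Over the 15813 genes tested, 32.5% were higher and 25.9% were lower by the same call. With quantile normalization, 15 potassium channel genes were higher and 6 lower. The median difference of the 32 was 1.19 on the log2 scale, against 0.10 over all genes tested, a median that moved by 0.12 when each culture was rescaled to the same sum and by -0.15 with quantile normalization. Without the 4 members listed at 0 in every control culture, whose fold changes are set by the pseudocount, the median was 1.085, against 0.07. The filter on the mean favours a gene that is high in either group, so the 22 members that averaged at least 0.1 FPKM in both groups were also counted, a choice made after the data were seen. Of these, 11 were higher and 3 were lower, or 50% and 13.6%, against 30.8% and 28.0% of the 14345 such genes. A further 8 members averaged under 0.1 FPKM in control and could enter the test only through a higher level after butyrate, so their direction supports nothing.

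**Figure D1:**
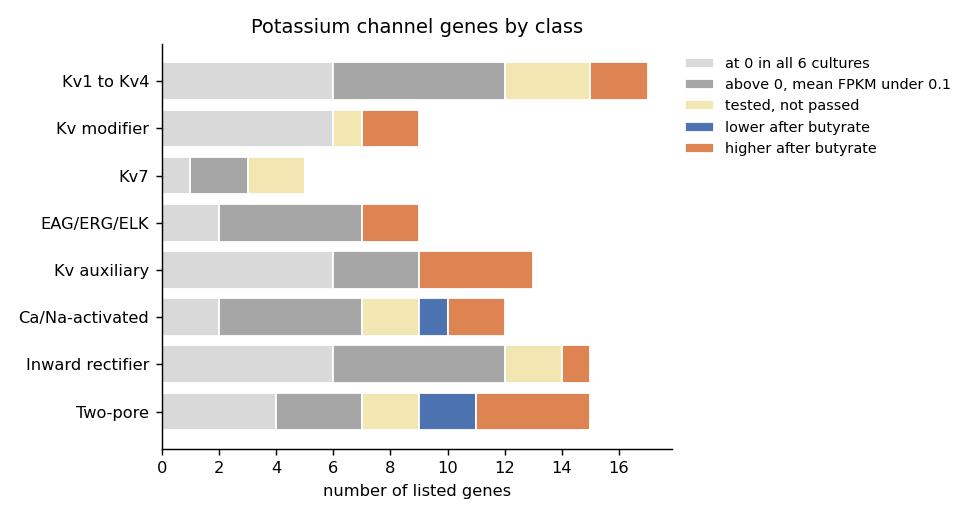
Number of listed potassium channel genes in each class (horizontal axis), split by their state in the 6 cultures. Each class holds genes listed at 0 in all 6 cultures, and genes lower after butyrate appear only among the calcium- and sodium-activated (1) and two-pore (2) channels.

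The potassium channel repertoire of the control cultures was narrow. KCNN4, KCNK1, KCNAB2 and KCNK6 together made up between 86.8% and 87.4% of the summed potassium channel FPKM of a control culture. KCNN4 alone made up between 46.3% and 48.8%. After butyrate the share of KCNN4 lay between 20.3% and 26.5%, and the 4 most abundant genes, now KCNN4, KCNAB2, KCNK1 and KCNK15, made up between 63.0% and 65.5%. The repertoire thus became broader, with 10 members averaging at least 1 FPKM in control and 17 after butyrate. Over all listed genes this number also grew, from 11458 in control to 12174 after butyrate. Between 33 and 38 members were above 0 in a control culture and between 43 and 48 in a butyrate culture. The number of all genes above 0 also differed between the groups, from 16051 to 16193 in control and from 17306 to 17510 after butyrate. The summed FPKM of the members was 120.5 ± 3.86 in control and 135.2 ± 4.78 after butyrate (SD, n = 3 cultures each), a modest difference beside the changes within it.

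**Figure D2:**
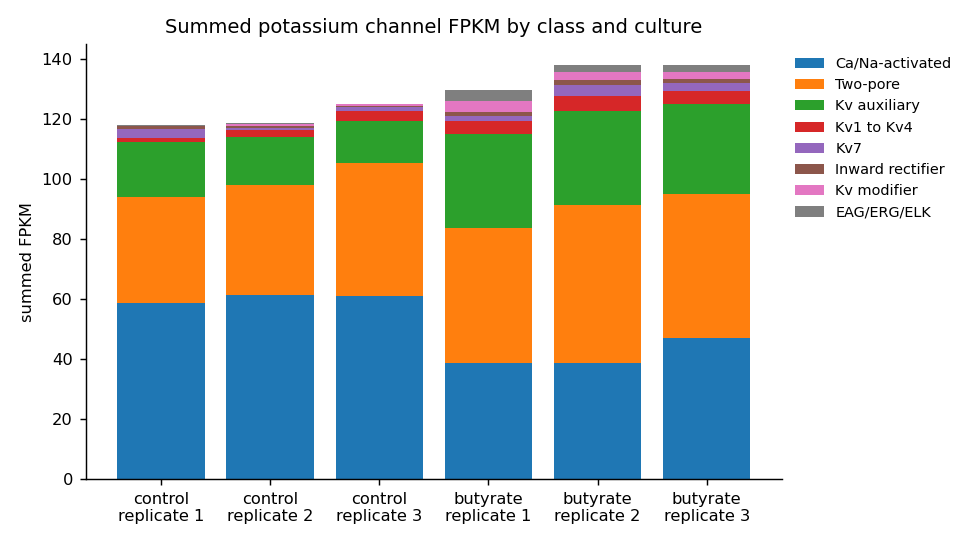
Summed FPKM of the potassium channel genes in each culture (vertical axis), stacked by class. The calcium- and sodium-activated channels shrank from 60.4 to 41.5 FPKM on average, and the auxiliary subunits of voltage-gated channels grew from 16.03 to 30.8 FPKM.

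The calcium- and sodium-activated channels held the most abundant member and changed in opposite directions. KCNN4 is the intermediate-conductance calcium-activated channel found in many epithelia. It stood at 54.9, 57.9 and 57.8 FPKM in control replicates 1, 2 and 3 and at 29.2, 28.0 and 36.5 FPKM in the butyrate cultures, in the same order, which holds for all values below. KCNN4 fell by 0.87 ± 0.10 (SE) on the log2 scale (BH-adjusted p = 8.24e-05, limma), and its 3 butyrate values lay well below its control values. KCNN1, a small-conductance calcium-activated channel best known from neurons, was at 0.27, 0.146 and 0.475 FPKM in control and at 3.55, 4.28 and 2.73 FPKM after butyrate. It rose by 3.25 ± 0.34 (BH-adjusted p = 5.78e-05), with no overlap between the groups. KCNT1, a sodium-activated channel also best known from neurons, was at 0.746, 0.601 and 0.773 FPKM in control and at 4.56, 4.47 and 5.34 FPKM after butyrate. It rose by 2.60 ± 0.19 (Bonferroni-adjusted p = 0.00659). KCNN4 nevertheless remained the most abundant member in every butyrate culture.

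The large-conductance calcium-activated channel showed a beta subunit without much of its pore. KCNMB1, the beta subunit typical of smooth muscle, stood at 2.67, 2.67 and 1.87 FPKM in control and at 0.962, 1.48 and 2.10 FPKM after butyrate. The groups overlapped, and its difference of -0.68 ± 0.29 did not pass the test (BH-adjusted p = 0.0737), while it passed with quantile normalization or without butyrate replicate 3. KCNMA1, the pore of that channel, averaged 0.0208 FPKM in control and 0.102 FPKM after butyrate and was too low to be tested. KCNMB1 lies within the span of KCNIP1, which was listed at 0 in all 6 cultures. Of the 7 smooth muscle and pericyte markers tested, TAGLN, ACTA2, CNN1 and MYH11 were lower after butyrate and CSPG4 and DES were higher, and their part in the values of KCNMB1 was not tested.

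Two-pore channels split into abundant members that fell and scarce members that rose. KCNK1, a weakly conducting leak channel, stood at 21.0, 21.4 and 23.1 FPKM in control and at 14.3, 16.9 and 17.2 FPKM after butyrate. KCNK6, its closest relative, stood at 9.76, 8.94 and 13.9 FPKM in control and at 6.52, 6.15 and 4.94 FPKM after butyrate. In both genes every butyrate culture lay below every control culture. KCNK1 fell by 0.44 ± 0.09 (BH-adjusted p = 0.00346) and KCNK6 by 0.86 ± 0.18 (BH-adjusted p = 0.00331). KCNK7, a relative of these 2 genes that gives no current when expressed alone, was at 1.89, 2.71 and 4.39 FPKM in control and at 3.74, 3.70 and 4.22 FPKM after butyrate. Its difference of 0.44 (95% interval -0.18 to 1.06) did not pass the test. It was 0.16 without control replicate 1 and 0.75 without control replicate 3, where it passed.

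Of the rising two-pore channels, KCNK15 (chr13:73866856-73872277), which is related to the acid-sensitive leak channels, had the smallest adjusted p of the members. It was at 0.86, 1.36 and 0.889 FPKM in control and at 11.6, 15.1 and 10.8 FPKM after butyrate. The rise of 3.48 ± 0.21 on the log2 scale carried a Bonferroni-adjusted p of 0.00167 (limma). Its control values rest on about 2 to 3 effective fragments per culture, and those after butyrate on between 26.9 and 42.4. KCNK17, an alkaline-activated leak channel, was at 0, 0 and 0.193 FPKM in control and at 2.66, 2.11 and 2.42 FPKM after butyrate. It rose by 4.12 ± 0.45 (BH-adjusted p = 7.12e-05), but only 1 control culture showed the gene, and the size of the rise was 6.46 with a pseudocount of 0.01 and 1.68 with 1. KCNK12, a subunit that yields little current on its own, went from 1.39 ± 0.38 to 6.64 ± 1.30 FPKM (SD, n = 3 each) and rose by 2.19 ± 0.23 (BH-adjusted p = 6.31e-05). KCNK5, an acid-sensitive leak channel of secretory and absorptive epithelia, went from 0.329 ± 0.0975 to 0.865 ± 0.175 FPKM and rose by 1.18 ± 0.31 (BH-adjusted p = 0.0111), a call lost with quantile normalization. Of the remaining two-pore members, KCNK3 was at 0 or under 0.26 FPKM in every culture and did not pass, and 7 were not tested.

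**Figure D3:**
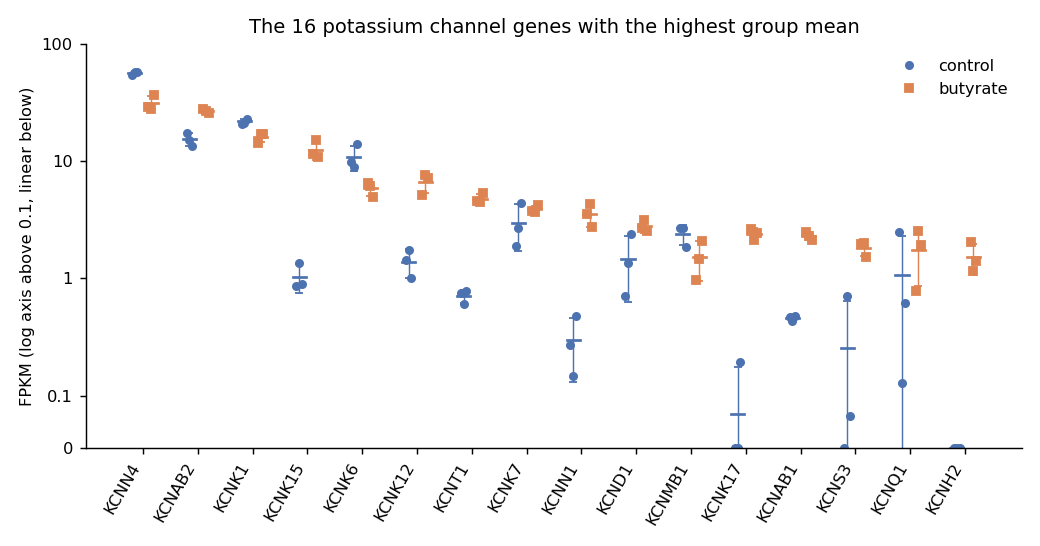
FPKM of the 16 potassium channel genes with the highest group mean (vertical axis, logarithmic above 0.1 and linear below), with points for single cultures, horizontal bars for means and whiskers for SD, which are drawn down to 0 where they would go below it. The 4 most abundant genes of the control cultures stand beside genes such as KCNK15 and KCNN1, whose butyrate values lie above all of their control values.

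The pore-forming subunits of the classical voltage-gated families Kv1 to Kv4 were scarce in both groups. Of 17 genes, 6 were listed at 0 throughout, 5 were tested, and 2 of these were higher after butyrate. KCNA6, a delayed rectifier of the Shaker family, was at 0.0766, 0.166 and 0.103 FPKM in control and at 0.568, 0.724 and 0.861 FPKM after butyrate. It rose by 1.93 ± 0.35 (BH-adjusted p = 0.00134), and the groups did not overlap. KCND1, an A-type channel and the most abundant gene of this class, was at 0.71, 1.34 and 2.38 FPKM in control and at 2.67, 3.16 and 2.52 FPKM after butyrate. Its rise of 1.01 ± 0.37 was close to the threshold (BH-adjusted p = 0.0418), and the call was lost in 9 alternatives, with BH-adjusted p between 0.052 and 0.136. KCNB2 and KCNC4, a delayed rectifier and a rapidly activating channel with group means under 0.6 FPKM, did not pass the test.

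The modifier subunits form no channel alone and change the behaviour of other Kv subunits. Of 9 such genes, 6 were listed at 0 in all 6 cultures and the other 3 were tested. KCNS3 was at 0, 0.701 and 0.0615 FPKM in control and at 1.96, 1.99 and 1.52 FPKM after butyrate. It rose by 3.03 ± 0.68 (BH-adjusted p = 0.00483), with a wide spread among the controls. KCNG2 was listed at 0 in the 3 control cultures and is described with the genes of that kind. KCNG1 went from 0.23 ± 0.16 to 0.61 ± 0.56 FPKM and did not pass the test (BH-adjusted p = 0.215).

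The Kv7 channels include KCNQ1, which carries a steady potassium current in many epithelia and in the heart. KCNQ1 was at 2.48, 0.127 and 0.621 FPKM in control and at 0.781, 2.55 and 1.92 FPKM after butyrate. The groups overlapped widely, and the difference of 1.16 (95% interval -0.67 to 2.99) did not pass the test (BH-adjusted p = 0.246). Leaving out single control cultures moved the difference from 0.30 without replicate 2 (BH-adjusted p = 0.716) to 2.05 without replicate 1, where it passed (BH-adjusted p = 0.0272). KCNQ5, a Kv7 channel of neurons and smooth muscle, averaged 0.556 and 0.663 FPKM and did not pass either (difference 0.25, 95% interval -0.43 to 0.92).

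In the EAG, ERG and ELK class, both tested genes were higher after butyrate, but KCNH2 could enter the test only through its level after butyrate. KCNH3, a channel of the brain, was at 0.223, 0.063 and 0.0611 FPKM in control and at 1.45, 1.14 and 0.675 FPKM after butyrate. It rose by 2.48 ± 0.42 (BH-adjusted p = 0.000997). KCNH3 overlaps MCRS1, a gene that was lower after butyrate, over 13 bp only. KCNH2, which carries the rapid delayed rectifier current of the heart, is described below. The other 7 listed genes of this class were not tested, and none of them averaged as much as 0.1 FPKM over the 6 cultures.

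The auxiliary subunits of voltage-gated channels contributed the third largest class sum, and all 4 that were tested were higher after butyrate. Of these 4, KCNAB3 and KCNIP2 averaged under 0.1 FPKM in control and could be tested only if higher after butyrate. KCNAB2, a cytoplasmic beta subunit with an oxidoreductase fold, made up most of this sum. It was at 17.5, 15.03 and 13.6 FPKM in control and at 27.9, 27.0 and 25.8 FPKM after butyrate. KCNAB2 rose by 0.81 ± 0.10 (BH-adjusted p = 0.000138), and the groups lay far apart relative to their spread. The other beta subunits moved the same way, KCNAB1 from 0.458 ± 0.0235 to 2.30 ± 0.16 FPKM and KCNAB3 from 0.0417 ± 0.0362 to 0.811 ± 0.20 FPKM. KCNAB1 rose by 2.10 ± 0.21 (BH-adjusted p = 4.03e-05) and KCNAB3 by 2.70 ± 0.38 (BH-adjusted p = 0.000346). KCNAB1 overlaps SSR3, a gene that was lower after butyrate, over 60 bp only. The single-span KCNE subunits were all at 0 or low in control, and KCNE3 was the highest of them.

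Inward rectifiers were nearly absent, with class sums between 0.453 and 0.927 FPKM in the control cultures and between 1.16 and 1.77 FPKM after butyrate. KCNJ10, a weakly rectifying channel of glia and of ion-transporting epithelia, was at 0.0563, 0.0152 and 0 FPKM in control and at 0.411, 1.01 and 0.453 FPKM after butyrate. It rose by 2.48 ± 0.45 (BH-adjusted p = 0.00144), and no other inward rectifier passed the test. KCNJ10 averaged 0.0238 FPKM in control and could be tested only through its level after butyrate. It overlaps LOC101903058, which averaged 4.22 FPKM in control and 4.17 FPKM after butyrate, over 18080 bp. Whether reads of that gene add to the values of KCNJ10 was not tested. KCNJ2, a strong rectifier, was the highest of the class in control at 0.703, 0.349 and 0.313 FPKM, against 0.142, 0.537 and 0.404 FPKM after butyrate. Its difference of -0.31 (95% interval -1.37 to 0.74) did not pass, and the sign turned without butyrate replicate 1. Of the 15 inward rectifiers, 6 were listed at 0 in all 6 cultures, among them KCNJ8 and KCNJ11, the pores of ATP-sensitive channels. ABCC8 and ABCC9, the partner subunits of those pores, were listed at 0 in every control culture.

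**Figure D4:**
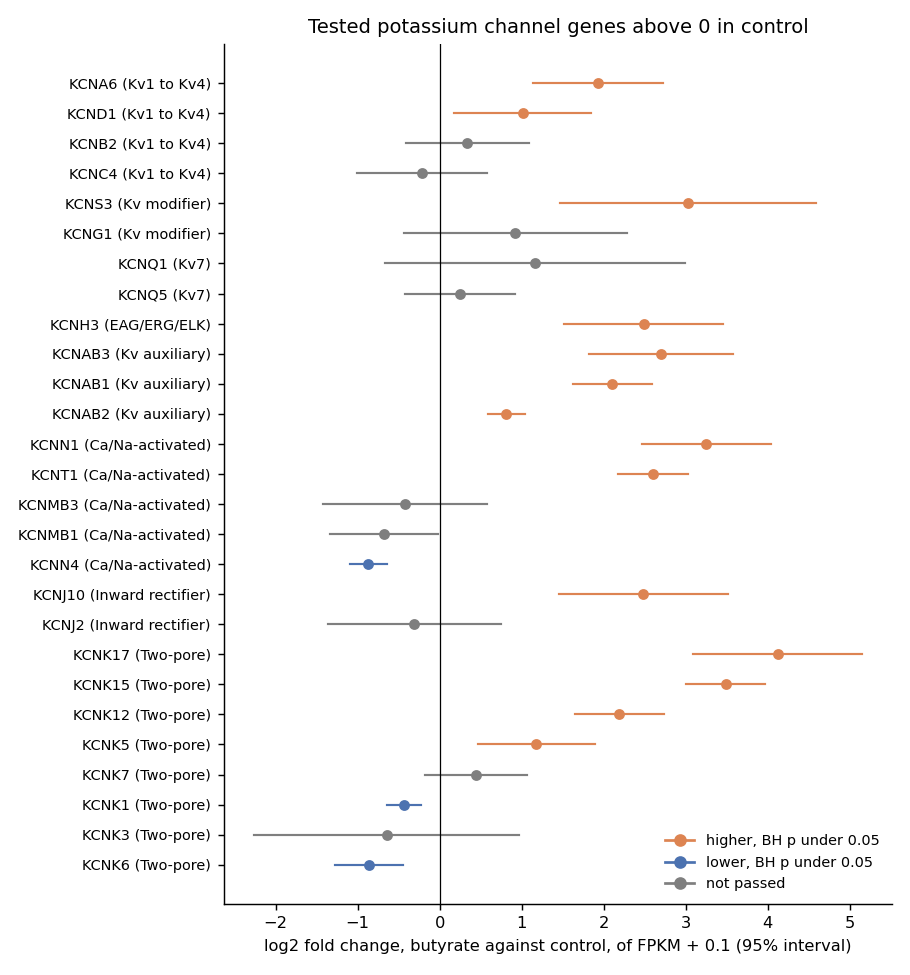
Log2 fold change between the butyrate and control cultures, computed on FPKM + 0.1 (horizontal axis, with 95% intervals from limma), of tested potassium channel genes above 0 in at least 1 control culture, ordered by class. Of the genes drawn 14 were higher and 3 lower after butyrate, and the falls, from -0.44 to -0.87, were smaller than most of the rises.

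By the stricter thresholds that define a differentially expressed gene in the study, a Bonferroni-adjusted p under 0.05 with a log2 fold change beyond 2, KCNK15, KCNT1 and KCNH2 were higher after butyrate. These 3 of 32 tested members stand beside 2.46% of all genes tested. The study applied its thresholds to results from Cufflinks, whereas limma was used here, so the calls can differ. No member was lower by these thresholds, against 1.51% of all genes tested, while 4 members were lower at an unadjusted p under 0.05 (limma). The count of 3 rests on few cultures and on the settings. KCNH2 was at 0 in every control culture, so that its fold change is set by the pseudocount, and of the alternatives it kept its place only with rescaling to a common sum or a log2 limit of 1. KCNK15 lost its place without the mean-variance trend, where KCNAB1 and KCNG2 came in beside KCNT1. The count was 0 without butyrate replicate 1 and 0 without butyrate replicate 2, 1 without butyrate replicate 3, and 1 with the replicate number as a block, with KCNK15 the gene that kept its place under the block. In ordering alone, 18 of the 32 members had every butyrate culture above every control culture, against 36.1% of all genes tested. In 3 members every butyrate culture was below every control culture, against 28.9%. The 18 include members that averaged under 0.1 FPKM in control and could be tested only if higher after butyrate.

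Turning from levels to presence, 49 of the 95 genes were listed at 0 in all 3 control cultures, and 5 of these were above 0 in all 3 butyrate cultures. They are 5.26% of the members, against 1.42% of all listed genes, and include KCNH2, KCNIP2, KCNG2 and KCNJ12. As a share of the genes listed at 0 in control, they are 10.2% of the members, against 3.22% of all genes. The reverse pattern was seen in 1 member, KCNE3, or 1.05%, against 0.158% of all listed genes. The FPKM tables hold no counts, so a value of 0 says that a gene is listed at 0, and no fold change is given for these genes.

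These 4 genes came from 4 different classes, namely 1 of 9 EAG, ERG and ELK genes, 1 of 13 auxiliary subunits, 1 of 9 modifier subunits and 1 of 15 inward rectifiers. No gene of the Kv1 to Kv4 class, the calcium- and sodium-activated channels or the two-pore channels had this pattern, of 9, 2 and 5 genes listed at 0 in control. KCNH2 (chr4:114329663-114357976) reached the highest level, at 2.04, 1.15 and 1.40 FPKM after butyrate (Bonferroni-adjusted p = 0.0333, limma). These values rest on about 31, 20 and 21 effective fragments. KCNIP2 (chr26:22422211-22441004), a calcium-binding partner of Kv4 channels, was at 0.298, 1.21 and 0.756 FPKM after butyrate (BH-adjusted p = 0.00101). KCNG2 (chr24:850085-875700) was the most even of the 4, at 0.56, 0.526 and 0.471 FPKM (BH-adjusted p = 0.00035). KCNH2, KCNIP2 and KCNG2 were picked by these same values and entered the test only through their level after butyrate. Their p-values, which also rest on the pseudocount, therefore add no support.

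The value of KCNJ12 stood on less. KCNJ12 (chr19:35955260-35993796), a strong inward rectifier, was at 0.483, 0.0843 and 0.0726 FPKM, from about 4 effective fragments in butyrate replicate 1 and at most 1 in the others. It did not pass the test (BH-adjusted p = 0.0694). KCNE3 (chr15:54587815-54594552), a partner of KCNQ1 in epithelia, was at 0.107, 0.288 and 0.0551 FPKM in control and listed at 0 in the 3 butyrate cultures. Its control values correspond to about 1.1, 3.6 and 0.4 effective fragments, so this change was near the limit of the depth. With no filter on low values, 62 members were tested, and KCNE3 was then lower at a BH-adjusted p under 0.05 (limma).

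**Figure D5:**
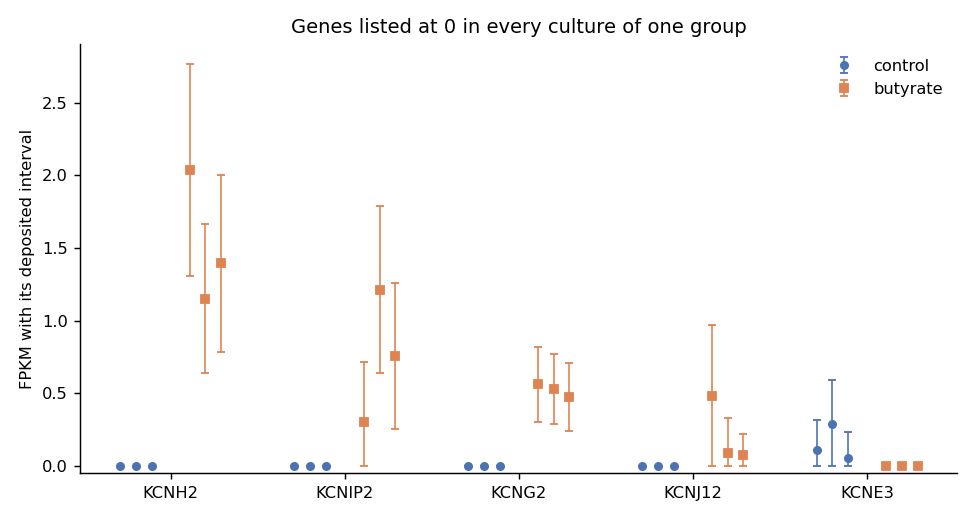
FPKM per culture (vertical axis), with the deposited confidence interval, of KCNH2, KCNIP2, KCNG2, KCNJ12 and KCNE3, each listed at 0 in every culture of 1 group. The intervals of KCNH2 and KCNG2 stay above 0 in all 3 butyrate cultures, whereas those of KCNJ12 and KCNE3 reach 0 in every culture where the gene was found.

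How many genes count as newly detected depends on the definition. Requiring a value above 0 in at least 2 butyrate cultures gave 8 genes, and in at least 1 gave 16, with 3 of the Kv1 to Kv4 class, 3 auxiliary subunits and 4 inward rectifiers among the 16. These counts are 8.42% and 16.8% of the members, against 3.09% and 6.62% of all listed genes. A boundary of 0.1 FPKM, below it in every control culture and at or above it in every butyrate culture, gave 7 genes, or 7.37%, against 1.78% of all genes. They include KCNH2, KCNIP2 and KCNG2 together with KCNAB3, KCNJ10 and KCNMB4. KCNMB4, the beta subunit of the large-conductance channel in neurons, was at 0.0459, 0 and 0.0462 FPKM in control and at 0.214, 0.111 and 0.159 FPKM after butyrate. No member met the reverse of this boundary, against 66 of all listed genes.

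Position in the genome was examined for every member, in the UMD3.1 build named in the submitters' processing notes. Starts and ends are those deposited with the FPKM values, with 1 added to each start. Chromosome names were inferred by matching gene symbols to the gene lists of the study. Of the 95 genes, 22 overlap another listed gene, 8 of them among those tested. The nearest genes without overlap on either side of the 17 members that were higher included 23 that were tested. Of these, 10 were higher and 3 lower after butyrate, beside 32.5% and 25.9% of all genes tested. The 10 include KCNK5 and KCNK17, which flank each other and belong to the 17, so their direction was fixed by that choice. Genes that overlap a member were left out of these counts. Among them, MCRS1 and SSR3 were lower, and LOC101903058 did not pass. KCNK15 lies 1117 bp from RIMS4, which went from 0.00863 to 0.55 FPKM and was higher, and 19209 bp from WISP2, which went from 160.4 to 65.8 FPKM and was lower. KCNH2 lies 103 bp from LOC104972288, which was listed at 0 in control and averaged 0.387 FPKM after butyrate. KCNK17 lies between KCNK5, at a distance of 64582 bp, and KCNK16, at a distance of 154 bp. Of these 3 two-pore genes in a row, KCNK5 and KCNK17 were higher after butyrate, and KCNK16 was listed at 0 in all 6 cultures. Reads that run past a gene's end cannot be seen in these tables, and whether they add to such values was not tested.

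Other genes that move potassium changed in both directions. The counts of this and the following lists stand beside 32.5% higher and 25.9% lower of all genes tested. Of 17 subunits of the potassium pumps and their FXYD partners, 12 were tested, and 6 were higher and 3 lower after butyrate. ATP1B2, a beta subunit typical of glia, rose from 0.0619 ± 0.0578 to 6.13 ± 2.32 FPKM, by 5.28 ± 0.37 (BH-adjusted p = 5.23e-06), the largest rise of that list. ATP4B, the beta subunit of the gastric proton pump, fell from 3.64 ± 0.81 to 0.34 ± 0.088 FPKM, by 3.08 ± 0.27 (BH-adjusted p = 1.77e-05). The sodium pump's main beta subunit, ATP1B1, averaged 33.0 and 27.4 FPKM and did not pass the test.

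Of 7 chloride cotransporters of the SLC12 family 5 were tested, and 3 were higher and none lower (limma, 0 of 5 also at an unadjusted p under 0.05). SLC12A3, which carries sodium and not potassium, was 1 of the 5 and did not pass, and the others are potassium-coupled. SLC12A7 rose from 1.05 ± 0.48 to 6.12 ± 0.42 FPKM, by 2.52 ± 0.29 (BH-adjusted p = 9.55e-05), while SLC12A4, the most abundant of them, averaged 63.5 and 61.2 FPKM. Of 16 potassium channel subunits with other names 7 were tested, and 4 were higher and 1 lower. HCN2, a pacemaker channel that passes sodium and potassium, rose from 2.94 ± 0.57 to 25.6 ± 3.60 FPKM, by 3.09 ± 0.17 (BH-adjusted p = 1.07e-06). TMEM38A and TMEM38B, the 2 intracellular cation channels that balance calcium release, moved apart. TMEM38A rose by 3.11 ± 0.17, from 0.88 to 8.28 FPKM, and TMEM38B fell by 0.67 ± 0.12, from 7.21 to 4.50 FPKM.

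Of 12 regulators of potassium transport and of channel genes, 10 were tested, and 5 were higher and 1 lower. WNK4, a kinase that controls cation-chloride cotransport, rose by 2.15 ± 0.45 from 0.0662 to 0.591 FPKM, and STK39, a kinase downstream of it, fell by 0.44 ± 0.12. REST, the repressor of neuronal genes that include several channel genes, averaged 2.50 FPKM in control and 1.97 FPKM after butyrate, a difference of -0.32 that did not pass the test (BH-adjusted p = 0.131). Among other channel families, 8 of 9 tested voltage-gated calcium channel genes, 4 of 8 TRP channel genes, 7 of 17 chloride channel genes and 1 of 5 voltage-gated sodium channel genes were higher. Of the same genes, 2 chloride channel genes were lower. These shares stand beside 17 of 32 for the potassium channels and 32.5% higher and 25.9% lower of all genes tested. The differences between families were not tested.

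Several members are best known from neurons, heart or smooth muscle, and markers of those and other cell types were counted in the same fit. All marker counts stand beside 32.5% higher and 25.9% lower of all genes tested. Of 14 epithelial markers 11 were higher and 1, KRT5, was lower, with a summed level between 2582 and 2698 FPKM in control and between 5332 and 5410 FPKM after butyrate. All 9 fibroblast markers were higher, with sums between 1940 and 1995 and between 2819 and 3069 FPKM. Of 9 smooth muscle and pericyte markers 7 were tested, and 2 were higher and 4 lower, with sums between 6480 and 6809 FPKM in control and between 2867 and 3480 FPKM after butyrate. Markers of several lineages thus moved with butyrate in the cultures in which the channel genes moved, as did many genes of all kinds.

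Of 10 neuronal markers 4 were tested and all 4 were higher, with sums between 114.7 and 121.8 FPKM in control and between 253.8 and 276.2 FPKM after butyrate, almost all of it TUBB3. The 4 were TUBB3, SNAP25 (1.35 to 3.86 FPKM), MAP2 (0.221 to 1.95 FPKM) and RBFOX3 (0.0268 to 1.02 FPKM). Of the other 6, GAP43 was listed at 0 in all 6 cultures, and STMN2, NEFL, SYT1, ELAVL3 and ELAVL4 averaged at most 0.0977 FPKM in either group. Of 8 cardiac and skeletal muscle markers 3 of 4 tested were higher, with sums between 2.31 and 4.202 and between 12.7 and 13.9 FPKM, while RYR2 and ACTN2 averaged under 0.1 FPKM in either group. All 3 tested of 6 endothelial markers were higher, with sums between 2.35 and 2.63 and between 10.8 and 13.7 FPKM, and CDH5 was listed at 0 throughout. Of 6 immune markers 2 of 3 tested were higher, with sums between 6.59 and 7.89 and between 12.2 and 14.2 FPKM, and PTPRC was listed at 0 throughout. Of 5 glial markers 1 of 2 tested was higher, with sums between 7.36 and 9.52 and between 21.2 and 23.4 FPKM, and SOX10 averaged under 0.1 FPKM in either group. The part of cell makeup in the channel values was not tested.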

How the data were processed

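RNA was sequenced from 3 butyrate-treated and 3 control REPC cultures. Per the labels and the submitters' processing notes, reads were trimmed with Trim Galore 0.4.1 and aligned with STAR against UMD3.1, and uniquely mapped reads were passed to Cufflinks. The authors deposited one FPKM table per culture, with a confidence interval for each gene; strand and normalization options are not given in the sources used here. No counts were used, so depth was approximated from the interval width, by taking each interval as plus or minus 2 times the value over the root of its fragments. Deposited starts count from 0, and 1 was added.

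Genes were joined by position. After removing 2 genes with a failed estimate, the 15813 that averaged 0.1 FPKM or more were fitted with limma 3.58.1 in R 4.3.3 (mean-variance trend) on log2(FPKM + 0.1), where the pseudocount shrinks fold changes of low genes. p-values were adjusted over all genes tested. The script was tested on simulated data.

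The members and gene lists were chosen with earlier results of these data known. Named members are those past the study's thresholds and the most abundant, largest rise and largest fall of each class. Those listed at 0 in 1 group only were also named, and the 3 nearest to no change among members averaging at least 1 FPKM. KCNK5, KCNK12, KCNAB1, KCNAB3 and other members and genes outside this rule were chosen after their values were seen. Some genes are counted but not reported singly here. No sequence is shown, as no table used here holds one.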

Additional observations from a re-analysis of the deposited data

How the results depend on the processing

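The alternatives were pseudocounts of 0.01 and 1, no filter or a mean FPKM of at least 1, no mean-variance trend, quantile normalization, rescaling to a common sum, the replicate block and leaving out each culture. The count of potassium channel genes higher after butyrate, 17, stayed between 15 and 21 except for 9 with a mean FPKM of at least 1, where 15 members were tested. It was between 16 and 19 when a culture was left out. The count lower, 3, became 6 with quantile normalization and lay between 3 and 4 when a culture was left out. The count past the study's thresholds, 3, became 1 with a pseudocount of 1, 1 with no filter and 1 with the replicate block, and lay between 0 and 3 when a culture was left out; a log2 limit of 1 in place of 2 left it at 3. None was lower by those thresholds in any alternative. The count of genes listed at 0 in control and above 0 after butyrate, 5, was 16 or 8 when 1 or 2 butyrate cultures sufficed, and between 5 and 7 when a culture was left out. Of the single-gene values, 270 kept direction and call, 9 lost the call, all for KCND1, 5 gained it, and 1 changed sign, KCNJ2, which lay between -0.60 and 0.096 when a culture was left out and was positive without butyrate replicate 1. Calls aside, the size of a rise from a low control level depends on the pseudocount. With 1 and 0.01 in place of 0.1, it was 0.62 and 2.58 for KCNA6, 1.21 and 4.51 for KCNS3, 0.89 and 3.30 for KCNH3, 0.65 and 4.51 for KCNJ10, 1.79 and 3.65 for KCNN1, and 1.68 and 6.46 for KCNK17. The deviations of same-numbered cultures from their group means were nearly uncorrelated across genes (0.0228, -0.0043 and 0.0018). This cannot show whether same-numbered cultures were set up together. The block left the counts of 17 higher and 3 lower as they were. The causes of these shifts were not tested. Members averaging under 0.1 FPKM rest on few fragments and were tested only with no filter, which added genes such as KCNMB4 and KCNN3 to the higher ones and KCNE3 to the lower ones.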
